A study of Mus musculus with 6 samples.

Results

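The expression of 10 zonation markers was followed in liver of laboratory and wild mice. The markers are genes whose place along the liver lobule is known from earlier work, and they were chosen by name. Of the 10, 7 are pericentral (Glul, Cyp2e1, Cyp1a2, Slc1a2, Axin2, Tbx3 and Rgn) and 3 are periportal (Cyp2f2, Hsd17b13 and Ctsc). All 10 were among the 47256 gene names listed once for every mouse and among the 18629 genes that passed the filter for testing.

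Liver RNA-Seq was made from 6 house mice. The 3 laboratory mice were adult males of C57BL/6, an inbred strain, obtained from a supplier. The 3 wild mice were adults live-trapped in New South Wales and then kept in captivity, 1 of them a male (wild mouse 1) and the other two females (wild mice 2 and 3). No genetic alteration or treatment is given for any of the mice, and each mouse gave 1 library. Strain, origin, housing, time of preparation and, for all but 1 wild mouse, sex differed together between the groups. The parts of these cannot be told apart.

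In the liver lobule, plates of hepatocytes run from the portal triads, where blood enters, to the central vein, where it leaves. Wnt ligands and R-spondins made by endothelial cells of the central vein activate beta-catenin in the nearest hepatocytes, and this keeps pericentral genes on. Pericentral hepatocytes make glutamine and oxidise drugs and toxins, while periportal hepatocytes make glucose and urea. A whole piece of liver was sequenced, so a change in the number of cells of a zone and a change in RNA per cell cannot be told apart, and no position along the lobule was measured.

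Values are given as FPKM, read fragments per gene, divided by the length of its transcript and by the size of the library, and as zFPKM, which is log2 FPKM less the mode of the same mouse's distribution, divided by an SD fitted to that distribution. All differences are wild minus laboratory. Of summed FPKM as listed, the 20 highest entries took 51.3% to 60.6% in laboratory mice, against 29.4% to 30.1% in wild mice. Genes with a failed estimate can be missing from these entries. Failures numbered 22 and 10 in laboratory mice 2 and 3 and 4 to 5 in wild mice, and laboratory mouse 1 has no marks. Alb had an estimate in laboratory mouse 3 alone, so the 20 entries need not be the same genes in each mouse. The median of log2(FPKM + 0.1) was 0.468 higher in wild mice over all tested genes. It was 0.90 higher over the 3795 genes with a mean above 10 FPKM. On zFPKM the median difference was -0.00489. Laboratory mouse 3 (mode 2.12) stood apart from the other laboratory mice (modes 0.491 and 0.794), and wild mouse 1 (mode 2.51) had a higher mode than wild mice 2 and 3 (1.31 and 1.77). Over genes above 10 FPKM, the median of log2(FPKM + 0.1) was 5.005 in wild mouse 1, against 5.006 and 5.038 in wild mice 2 and 3. The files hold no counts, so the depth of the libraries is unknown. In the 5 mice with bounds from Cufflinks, the half-width of the bounds was at most 5.79% of the FPKM for Glul, Cyp2e1, Cyp1a2, Rgn, Cyp2f2 and Hsd17b13. It was between 5.49% and 13.2% for Slc1a2, Tbx3 and Ctsc, and between 9.54% and 31.8% for Axin2.

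Of the 10 zonation markers, 5 were higher in wild mice by limma on zFPKM (adjusted p under 0.05 over all tested genes), namely the pericentral Glul, Cyp2e1 and Slc1a2 and the periportal Hsd17b13 and Ctsc. In the same test 7.28% of all tested genes were higher in wild mice. None of the 10 was lower in wild mice, against 7.17% of all tested genes. At an unadjusted p under 0.05 by limma, 6 of the 10 were higher and 1, Cyp2f2, was lower. Of the 18629 tested genes, 2416 were higher and 2369 lower at that threshold. The median zFPKM difference was 0.34 over the pericentral markers and 0.42 over the periportal markers. In FPKM, all 3 wild mice lay above all 3 laboratory mice for 9 of the 10 markers, the exception being Cyp2f2, but the same held for 43.7% of all tested genes. In zFPKM this was so for 5 markers (Glul, Cyp2e1, Slc1a2, Axin2 and Hsd17b13) and for 14.1% of all tested genes. These shares are over all tested genes and were not matched to the level of the markers. The median of log2(FPKM + 0.1) was 0.468 higher in wild mice over all tested genes, and 0.90 higher over those above 10 FPKM. Standard errors by limma on zFPKM were smaller for an abundant marker such as Glul (0.112) than for Axin2 (0.291).

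**Figure D1:**
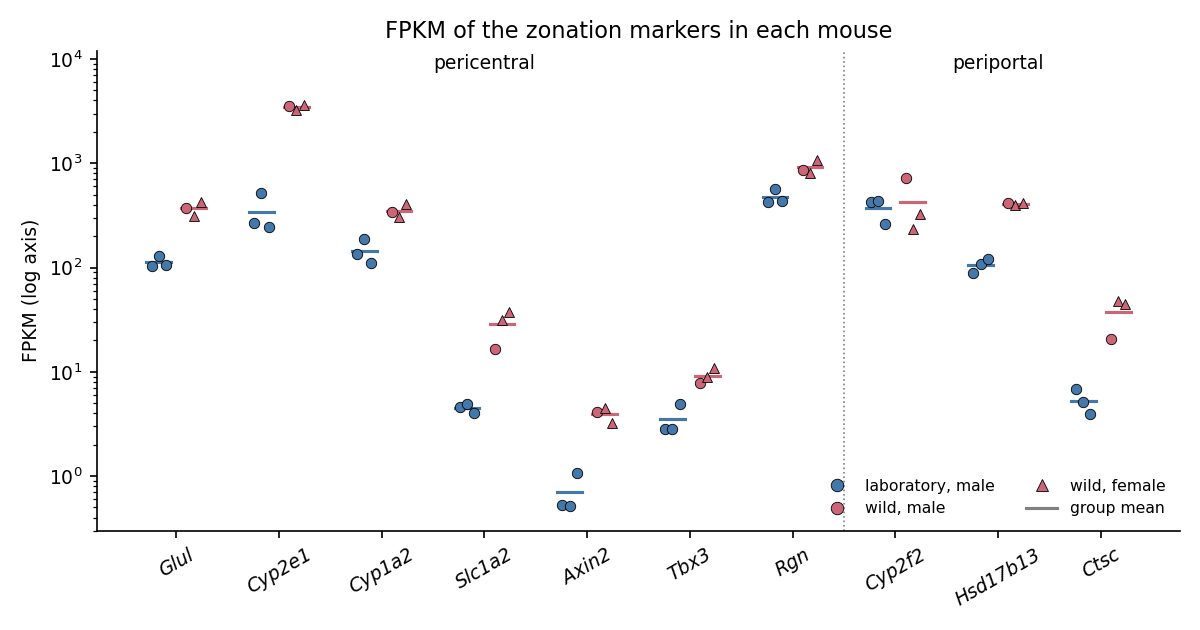
FPKM of each zonation marker (log axis) in the 3 laboratory mice (blue) and the 3 wild mice (red), with circles for males, triangles for females and bars for group means. Cyp2e1 lies between 242 and 519 in laboratory mice, and between 3229 and 3650 in wild mice, and Cyp2f2 is the marker whose groups overlap.

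The calls rest on the scale and on how the spread was estimated. Limma treated all difference in variance between genes as given by the trend with expression. Each standard error thus comes from the trend and not from the gene's own 3 values per group. Own spreads differed at like standard errors. Among wild mice the zFPKM SD was 0.0536 for Hsd17b13 and 0.255 for Cyp2f2, with standard errors of 0.111 and 0.104. The very small adjusted p on zFPKM rest on this treatment. With each gene's own variance weighed in (eBayes without trend), Cyp2e1 alone of the 10 passed (adjusted p = 0.044). A second scale was chosen after the data were seen, log2(FPKM + 0.1) with the median of the genes above 10 FPKM set to 0 in each mouse (centred log2 below). On centred log2, 6 of the 10 were higher in wild mice, the same 5 and Axin2, against 16.9% of all tested genes. None was lower by limma, and none was lower at an unadjusted p under 0.05, against 33.8% of all tested genes called lower on that scale. Laboratory mouse 3 and wild mouse 1 had the highest mode of their groups. Without them, 7 markers were higher on zFPKM and 1, Cyp2f2, was lower, against 15.9% and 14.5% of all tested genes. That comparison set laboratory males against wild females alone. Leaving out wild mouse 3 left 1 marker called (Cyp2e1), and leaving out wild mouse 2 left 2 (Cyp2e1 and Hsd17b13).

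**Figure D2:**
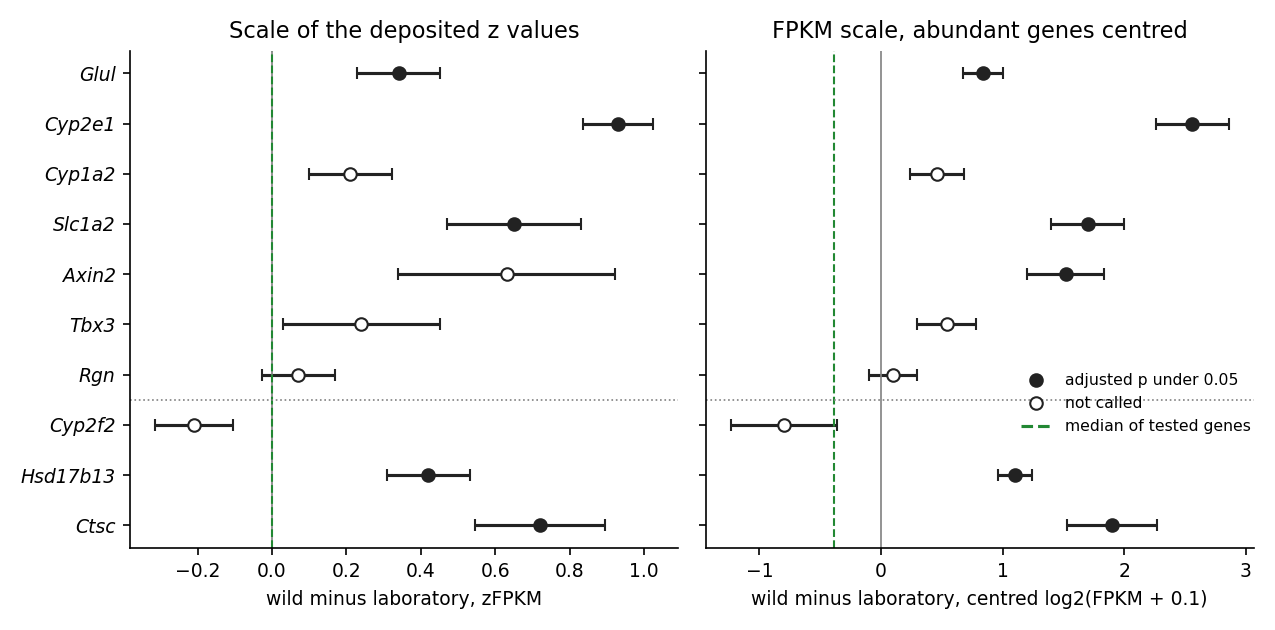
Difference of each zonation marker, wild minus laboratory, on zFPKM (left) and on centred log2(FPKM + 0.1) (right), with bars for the standard error from limma and filled points for adjusted p under 0.05. The dashed line is the median of the 18629 tested genes. Cyp2e1 has the largest difference of the 10 on both scales (0.93 and 2.56), and Cyp2f2 lies below 0 on both (-0.21 and -0.80).

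Cyp2e1 (chr7:140763819-140774990, GRCm38) encodes a cytochrome P450 that oxidises ethanol, acetone and paracetamol, and it is among the genes most strongly restricted to the pericentral zone. Its FPKM was 268, 519 and 242 in laboratory mice, against 3505, 3229 and 3650 in wild mice. The lowest wild mouse was thus well above the highest laboratory mouse, and the spread was wide among laboratory mice (coefficient of variation 44.7%) and narrow among wild mice (6.17%). The mean was 343 ± 153 (SD, n = 3) in laboratory mice, against 3461 ± 213 (SD, n = 3) in wild mice, a ratio of 10.1. By rank among the genes of each mouse, Cyp2e1 stood at place 137 to 242 in laboratory mice, against place 21 to 28 in wild mice. Cyp2e1 differed by 0.93 on zFPKM (standard error 0.0941, adjusted p = 1.26e-20) and by 2.56 on centred log2 (standard error 0.30, adjusted p = 0.000791). It passed in 21 of 24 alternatives, with adjusted p between 1.27e-35 and 0.45.

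The promoters of Cyp2e1 and of 3 further markers are shown because they span the outcomes in both zones, a pericentral gene that rose (Cyp2e1), a pericentral gene of the same enzyme family that was not called (Cyp1a2), a periportal gene that rose (Hsd17b13) and the periportal gene with the lowest difference (Cyp2f2). Each line gives the 250 bases before the start site from RefSeq on GRCm38.p6, 5′ to 3′ on the strand of the gene, with matches to the searched motifs in capitals. Of the 10 markers, 8 had an entry in the RefSeq promoter table.
Cyp2e1 (chr7:140763569-140763818, + strand): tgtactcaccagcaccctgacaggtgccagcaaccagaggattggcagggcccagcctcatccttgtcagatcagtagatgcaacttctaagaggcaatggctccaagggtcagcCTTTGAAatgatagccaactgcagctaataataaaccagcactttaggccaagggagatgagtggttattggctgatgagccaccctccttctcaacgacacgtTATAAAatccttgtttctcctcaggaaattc
Cyp1a2 (chr9:57683656-57683905, - strand): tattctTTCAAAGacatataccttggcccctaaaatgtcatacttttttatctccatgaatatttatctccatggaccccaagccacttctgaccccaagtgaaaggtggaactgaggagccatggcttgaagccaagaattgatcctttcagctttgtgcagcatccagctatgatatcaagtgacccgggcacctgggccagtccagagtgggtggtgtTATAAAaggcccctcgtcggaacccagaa
Hsd17b13 (chr5:103977389-103977638, - strand): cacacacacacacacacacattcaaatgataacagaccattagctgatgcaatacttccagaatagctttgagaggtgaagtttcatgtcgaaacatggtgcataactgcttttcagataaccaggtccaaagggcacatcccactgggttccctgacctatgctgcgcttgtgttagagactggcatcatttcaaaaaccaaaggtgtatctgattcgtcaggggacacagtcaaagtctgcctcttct
Cyp2f2 (chr7:27119705-27119954, + strand): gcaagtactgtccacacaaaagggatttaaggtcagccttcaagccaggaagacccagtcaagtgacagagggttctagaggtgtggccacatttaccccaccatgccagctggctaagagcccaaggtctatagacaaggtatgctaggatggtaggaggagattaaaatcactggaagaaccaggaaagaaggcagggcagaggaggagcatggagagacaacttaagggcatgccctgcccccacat

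The motifs were searched on both strands. For TCF/LEF, the factors that bring beta-catenin to DNA, the first string was CTTTGAT, a further string was CTTTGAA, and the last of these strings was CTTTGTT. The string for HNF4A, a factor that sets hepatocyte identity, was CAAAGTCCA. The aryl hydrocarbon receptor was searched as GCGTG, and the TATA box as TATAAA. In the Cyp2e1 window CTTTGAA lies 135 to 129 bases before the start and TATAAA 31 to 26 bases before it. In the Cyp1a2 window CTTTGAA lies on the opposite strand, 244 to 238 bases before the start, and TATAAA lies 29 to 24 bases before it. The RefSeq windows of Slc1a2, Axin2 and Ctsc end at starts that lie 48199, 2521 and 61 bases inside the gene as the files list it, so those of Slc1a2 and Axin2 do not cover the start of the listed gene. The Slc1a2 window had CTTTGAT on the opposite strand 207 to 201 bases before the internal start, and the Ctsc window had GCGTG on the opposite strand 83 to 79 bases before its start. No searched letters were found in the windows of Glul, Cyp2f2 and Hsd17b13, nor in that of Axin2, which precedes an internal start. None of the matches overlapped another. Any of the 3 TCF/LEF strings was present in 12.0% of all 32841 promoter windows of the same length, and TATAAA in 12.4%, GCGTG in 28.2% and CAAAGTCCA in 0.384%. A match is a description of the letters and not of binding.

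Glul and Slc1a2 act in the same pericentral task. Glul (chr1:153899929-153909723) encodes glutamine synthetase, which joins ammonia to glutamate in the last hepatocytes before the central vein, and Slc1a2 (chr2:102658239-102790784) encodes a glutamate transporter that brings glutamate into those cells. The FPKM of Glul was 103, 130.4 and 106 in laboratory mice, against 370.4, 313 and 424 in wild mice, with no overlap between the groups. Its mean was 113 ± 14.9 (SD, n = 3) in laboratory mice, against 369 ± 55.3 (SD, n = 3) in wild mice, a ratio of 3.26. The zFPKM difference was 0.34 (standard error 0.112, adjusted p = 0.0229) and the centred log2 difference 0.84 (standard error 0.164, adjusted p = 0.00528). Glul passed in 15 of 24 alternatives, with adjusted p between 0.000269 and 0.45. The FPKM of Slc1a2 was 4.55, 4.95 and 4.0 in laboratory mice, against 16.4, 31.6 and 37.8 in wild mice. All wild mice were above all laboratory mice, and within the wild mice the male was the lowest. The mean was 4.50 ± 0.479 (SD, n = 3) against 28.6 ± 11 (SD, n = 3), a ratio of 6.35. Slc1a2 differed by 0.65 on zFPKM (standard error 0.181, adjusted p = 0.00459) and by 1.70 on centred log2 (standard error 0.302, adjusted p = 0.00363). In zFPKM wild mouse 1 (0.57) was only just above laboratory mouse 1 (0.55). Slc1a2 passed in 16 of 24 alternatives, with adjusted p between 0.000518 and 0.749.

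Cyp1a2 and Rgn are pericentral enzymes that were not called. Cyp1a2 (chr9:57676937-57683655) encodes a cytochrome P450 that metabolises caffeine and is induced through the aryl hydrocarbon receptor. Its FPKM was 134, 186 and 109 in laboratory mice, against 340.4, 303 and 407 in wild mice, a ratio of means of 2.45. The groups did not overlap in FPKM but did in zFPKM, where the difference was 0.21 (standard error 0.111, adjusted p = 0.218). Rgn (chrX:20549766-20562089) encodes regucalcin, a lactonase in the synthesis of ascorbate. Its FPKM was 424, 561 and 432 in laboratory mice, against 862, 805 and 1086 in wild mice, a ratio of means of 1.94. Its zFPKM difference was 0.07 (standard error 0.0983, adjusted p = 0.711), and on centred log2 it was 0.10 (standard error 0.197, adjusted p = 0.691). Rgn thus differed in FPKM by about as much as the median gene above 10 FPKM.

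Axin2 and Tbx3 read the state of Wnt signalling rather than metabolism. Axin2 (chr11:108917828-108950783) encodes a scaffold of the complex that destroys beta-catenin and is itself a target of beta-catenin. The FPKM of Axin2 was 0.526, 0.514 and 1.07 in laboratory mice, against 4.07, 4.45 and 3.23 in wild mice. Every wild mouse was above every laboratory mouse, and laboratory mouse 3 was the highest of its group. The ratio of means was 5.56. The Axin2 difference on zFPKM, 0.63 (standard error 0.291, adjusted p = 0.139), did not pass, while the centred log2 difference of 1.52 did (standard error 0.316, adjusted p = 0.00671). Axin2 passed in 7 of 24 alternatives. Tbx3 (chr5:119670534-119684724) encodes a T-box repressor of transcription that acts downstream of beta-catenin in hepatocytes. The FPKM of Tbx3 was 2.83, 2.81 and 4.90 in laboratory mice, against 7.77, 8.95 and 10.8 in wild mice, a ratio of means of 2.61. Its zFPKM values overlapped between the groups, with a difference of 0.24 (standard error 0.211, adjusted p = 0.531). Among males alone the zFPKM difference of Tbx3 was -0.04, a value that rests on the single wild male. That mouse had the highest mode of its group, and its Tbx3 FPKM was above that of every laboratory mouse.

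Cyp2f2 (chr7:27119955-27133660) encodes a cytochrome P450 that oxidises naphthalene and is a widely used periportal marker. Its FPKM was 425, 437 and 262 in laboratory mice, against 729, 232 and 327 in wild mice. The groups overlapped, with the wild male the highest of all 6 mice and wild female 2 the lowest. The mean was 375 ± 97.7 (SD, n = 3) against 430 ± 264 (SD, n = 3), and the coefficient of variation of 61.4% among wild mice was the highest of the 10 markers in either group. The zFPKM difference was -0.21 (standard error 0.104, adjusted p = 0.169). The difference depended on single mice. Without wild mouse 1 it was -0.35 and without laboratory mouse 3 it was -0.31, both called lower in wild mice. With males only the difference was 0.06.

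Hsd17b13 and Ctsc are counted as periportal and both rose. Hsd17b13 (chr5:103955442-103977388) encodes a retinol dehydrogenase of the lipid droplet surface. Its FPKM was 89.0, 108 and 122 in laboratory mice, against 414, 394 and 420.2 in wild mice. The wild mice were close to each other (coefficient of variation 3.38%) and all far above the laboratory mice, a ratio of means of 3.85. The zFPKM difference was 0.42 (standard error 0.111, adjusted p = 0.00269) and the centred log2 difference 1.10 (standard error 0.14, adjusted p = 0.00107). Hsd17b13 passed in 18 of 24 alternatives, with adjusted p between 0.000124 and 0.233. Ctsc (chr7:88278024-88315861) encodes cathepsin C, a lysosomal peptidase that activates the serine proteases of leukocyte granules, so that blood cells and macrophages also express it. Its FPKM was 6.83, 5.08 and 3.95 in laboratory mice, against 20.6, 48.2 and 44.3 in wild mice, a ratio of means of 7.14. The groups did not overlap in FPKM but did in zFPKM, where wild mouse 1 (0.69) lay below laboratory mouse 1 (0.73). Ctsc differed by 0.72 on zFPKM (standard error 0.174, adjusted p = 0.000732) and by 1.90 on centred log2 (standard error 0.37, adjusted p = 0.0053). Ctsc passed in 17 of 24 alternatives, with adjusted p between 0.00047 and 0.732. The summed FPKM of 9 Kupffer cell markers was 58.2 to 87.6 in laboratory mice, against 25.1 to 206 in wild mice, lowest in wild mouse 1 as was Ctsc among the wild mice. None of the 9 was called by limma on zFPKM, or on centred log2, where 16.9% of all tested genes were higher and 33.8% lower. At an unadjusted p under 0.05 on zFPKM, 2 of the 9 were lower, against 2369 of the 18629 tested genes. The part of these cells in the Ctsc difference was not tested.

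Sex was examined as far as 1 wild male allows. The 2 wild females had on average 2.11 times the Slc1a2 FPKM of the wild male, 2.25 times the Ctsc FPKM and 0.384 times the Cyp2f2 FPKM. For the other 7 markers the ratio of female mean to male lay between 0.943 (Axin2) and 1.27 (Tbx3). These are single values without a replicate of the wild male. Against the mean of the 3 laboratory males, the wild male had 10.2 times the Cyp2e1 FPKM, 3.27 times that of Glul, 3.90 times that of Hsd17b13, 3.65 times that of Slc1a2 and 3.90 times that of Ctsc. With sex as a covariate or with males only, the zFPKM difference of Slc1a2 was 0.24 (adjusted p = 0.607 and 0.749) and that of Ctsc was 0.29 (adjusted p = 0.544 and 0.732), by limma. With sex as a covariate, Cyp2e1 was the one marker called (difference 0.96, standard error 0.146, adjusted p = 0.0031). Both females are wild, so this difference, like that with males only, sets wild mouse 1 against the laboratory mice. It thus rests on 1 wild animal, whose mode was the highest of the wild mice. With males only, no gene of the 18629 was called by limma, 3118 genes had an unadjusted p under 0.05, 2 of them zonation markers, and the Cyp2e1 difference was 0.96 (standard error 0.186, adjusted p = 0.182).

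Ratios of FPKM between markers within a mouse do not depend on how the libraries are scaled. The ratio of Cyp2e1 to Cyp2f2, a pericentral and a periportal P450, was 0.629, 1.19 and 0.923 in laboratory mice, against 4.81, 13.9 and 11.1 in wild mice. Every wild mouse was above every laboratory mouse, and the wild male was the lowest of the wild mice. Glul to Cyp2f2 was 0.243, 0.298 and 0.405 in laboratory mice, against 0.508, 1.35 and 1.29 in wild mice, again without overlap. Rgn to Cyp2f2 overlapped, at 0.997 to 1.65 in laboratory mice, against 1.18 to 3.46 in wild mice. Between pericentral genes, Cyp2e1 to Glul was 2.59, 3.98 and 2.28 in laboratory mice, against 9.46, 10.3 and 8.61 in wild mice, while Rgn to Glul was 4.11, 4.30 and 4.07 against 2.33, 2.57 and 2.56. The ratio of Hsd17b13, a periportal gene, to the pericentral Glul overlapped between the groups, at 0.827 to 1.15 in laboratory mice, against 0.992 to 1.26 in wild mice. Axin2 to Tbx3 was 0.186, 0.183 and 0.219 in laboratory mice, against 0.524, 0.498 and 0.30 in wild mice. Of 13 ratios computed, 5 of them over Cyp2f2, 10 did not overlap, against 53.7% of the ratios between all pairs of tested genes above 0 FPKM in every mouse. Each of the 10 came with p = 0.1 by a two-sided exact permutation test (0.13 after Benjamini-Hochberg adjustment), where 0.1 is the smallest p that 3 mice against 3 allow.

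**Figure D3:**
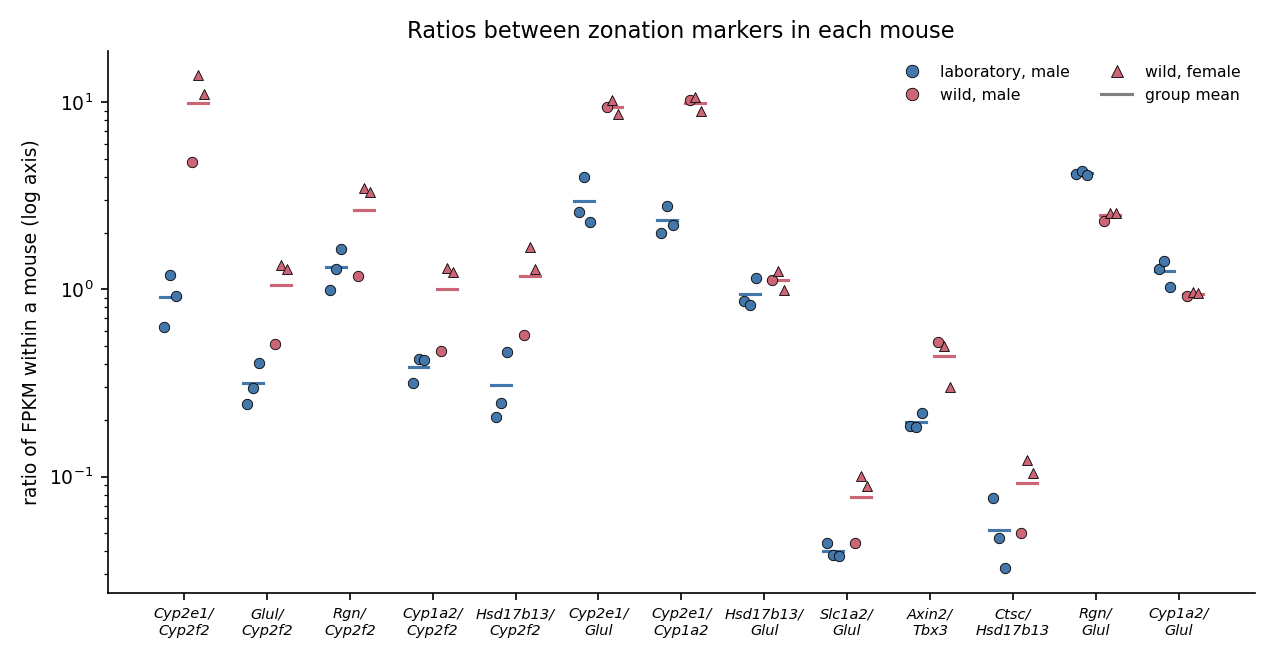
Ratio of FPKM between 2 zonation markers within each mouse (log axis), with circles for males, triangles for females and bars for group means. Cyp2e1 to Glul lies between 2.28 and 3.98 in laboratory mice, and between 8.61 and 10.3 in wild mice, while Hsd17b13 to Glul overlaps.

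The order of the markers by FPKM, which compares genes per length, changed at the top. In laboratory mice Rgn (473 ± 76.6, SD, n = 3), Cyp2f2 (375 ± 97.7) and Cyp2e1 (343 ± 153) led, and neighbours in this order overlapped. In wild mice Cyp2e1 (3461 ± 213) led without overlap, followed by Rgn (918 ± 148), which did not overlap with the next gene. Cyp2f2, Hsd17b13, Glul and Cyp1a2 followed in wild mice with overlapping values, from 430 ± 264 to 350.2 ± 52.5. By mean FPKM the lower end was alike in both groups, with Ctsc, Slc1a2, Tbx3 and Axin2 in that order. Ctsc overlapped with Slc1a2 in both groups, and Slc1a2 with Tbx3 in laboratory mice. In laboratory mouse 3 the first of these were reversed, with Tbx3 at 4.90, Slc1a2 at 4.0 and Ctsc at 3.95.

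For each marker, the genes whose pattern over the 6 mice was most like it were found by the root mean square difference of zFPKM after each gene was set to its own mean. Cyp2e1 was followed most closely by Oat, another pericentral gene, at 0.0757, and by the amino acid transporter Slc1a4 at 0.0883, and 7 genes in all lay within 0.1. Cyp2f2 also had 7 genes within 0.1, led by Gm3734 and Mcm10. The other markers had many near genes, from 56 within 0.1 for Ctsc to 864 for Tbx3, whose own zFPKM values span 0.524. The 2 nearest were Tars and Aldh2 for Glul, Il1rap and Cutal for Cyp1a2, Ttc39aos1 and Pja2 for Slc1a2, and Entpd4 and Entpd4b for Axin2. They were Rasa1 and Dnmt1 for Tbx3, Serpinc1 and Tkfc for Rgn, and LOC115489552 and Gm2808 for Ctsc. In Tbx3, laboratory mouse 3 and wild mouse 1 were the lowest of their groups, as they were in the median zFPKM of all tested genes (-0.746 and -0.696).

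Other genes of the pericentral zone were compared as a list of 28, all of them tested. By limma on zFPKM 17 were higher in wild mice and 2 lower, with a median difference of 0.43, beside 7.28% higher, 7.17% lower and a median near 0 over all tested genes. On centred log2, 16 were higher and 1 lower, against 16.9% and 33.8% of all tested genes. Of the 17, Cyp3a11 and Cyp2c37 overlapped between the groups in zFPKM and were not called on centred log2. Cyp3a11 was at 451, 624 and 250 FPKM in laboratory mice, against 3931.5, 2273 and 360.5 in wild mice. Cyp2c29, a cytochrome P450 of drug and fatty acid oxidation, had the largest rise, with FPKM of 33.0, 59.5 and 43.9 in laboratory mice, against 2763, 1344 and 1129 in wild mice (zFPKM difference 1.55, adjusted p = 1.19e-43). Cldn2, a claudin of tight junctions that lets water and sodium pass, was at 0.755, 0.851 and 0.944 against 24.3, 27.5 and 10.6 (zFPKM difference 1.32, adjusted p = 4.44e-07). Both were called in each of the 6 fits that left out a mouse. Cyp2c54 had the largest fall (zFPKM difference -0.68, adjusted p = 3.99e-07), but its FPKM was 200, 203 and 196 in laboratory mice, against 23.0, 167 and 185 in wild mice. Without wild mouse 1 its difference was -0.28 and was not called. Mgst1, a glutathione transferase of the endoplasmic reticulum and the highest gene of the list, also fell (zFPKM difference -0.33, adjusted p = 0.00169). The Cyp2c and Gstm genes have close copies in the genome, between which reads can be divided, so their single values are uncertain.

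Other genes of the periportal zone were compared as a list of 22, of which 20 were tested. On zFPKM 6 were higher and 2 lower in wild mice, against 7.28% and 7.17% of all tested genes. The median difference was 0.06. Aldh1b1, a mitochondrial aldehyde dehydrogenase, rose most, with FPKM of 1.61, 2.11 and 1.90 in laboratory mice, against 60.2, 83.0 and 80.0 in wild mice (zFPKM difference 1.59, adjusted p = 1.21e-16). Fbp1, the gluconeogenic fructose bisphosphatase, rose by 1.04 on zFPKM (adjusted p = 7.89e-18), from 39.8, 55.0 and 60.5 FPKM to 782, 605 and 682. Igf1, the growth factor that the liver releases under growth hormone, fell most (zFPKM difference -0.70, adjusted p = 2.11e-06), from 138, 117 and 111.5 FPKM to 54.0, 48.0 and 47.9. Ass1, a urea cycle enzyme and the highest of the 20 tested genes, differed by 0.26 (adjusted p = 0.0297) and was called in 1 of the 6 fits that left out a mouse. Hsd17b6, also among the 6, overlapped between the groups in zFPKM, and neither Hsd17b6 nor Ass1 was called on centred log2. The share called higher was 17 of 28 in the pericentral list and 6 of 20 in the periportal list. With eBayes without trend, 3 and 2 were called higher. The difference between the lists was not tested. Of 3 genes placed in the middle of the lobule, Hamp and Hamp2, which encode hepcidins, were lower in wild mice (zFPKM differences -0.68 and -1.86), and Igfbp2 was not called (0.05). Hamp overlapped in FPKM, at 7014, 5642 and 14843 in laboratory mice, against 2833, 6168 and 3459 in wild mice. It was called in 14 of 24 alternatives, and Hamp2 in 22.

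**Figure D4:**
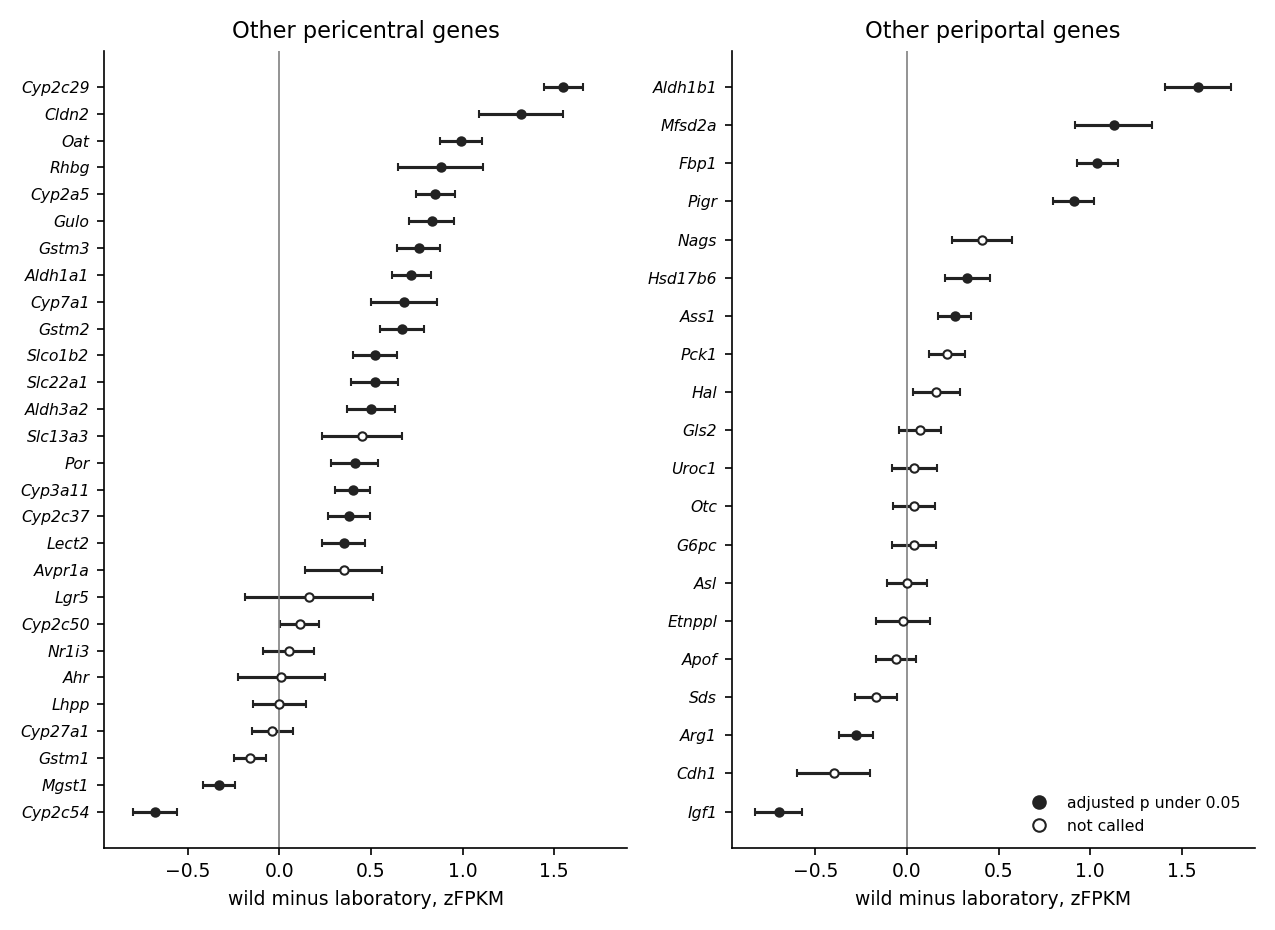
Difference in zFPKM, wild minus laboratory, of 28 other pericentral genes (left) and 20 other periportal genes (right), with bars for the standard error from limma and filled points for adjusted p under 0.05. In the left list 17 filled points lie above 0 and 2 below, and in the right list 6 above and 2 below.

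The Wnt pathway that keeps the pericentral genes on was read from 3 lists. Of 10 further Wnt targets tested, none was called in either direction by limma on zFPKM, and none had an unadjusted p under 0.05. Of all 18629 tested genes, 7.28% were called higher and 7.17% lower, so a count of 0 called in 10 is near these shares. At an unadjusted p under 0.05, 2416 of them were higher and 2369 lower. Lgr5, the R-spondin receptor of the cells at the central vein, had FPKM of 0.447, 0.458 and 0.734 in laboratory mice, against 1.11, 1.53 and 0.990 in wild mice (zFPKM difference 0.16, adjusted p = 0.838). Notum, a secreted inhibitor of Wnt ligands, differed by 0.03, Znrf3 by 0.13, Sp5 by 0.31 and Nkd1 by -0.32, and none of these passed. On centred log2, Tnfrsf19 was called higher and Nkd1, Tcf7 and Lef1 lower, against 16.9% higher and 33.8% lower of all tested genes. Axin2, with a zFPKM difference of 0.63, was thus above each of the 10 on that scale.

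Of 9 Wnt ligands, R-spondins and their export factors, none was called on zFPKM in either direction. That is near the 7.28% higher and 7.17% lower over all tested genes. Wnt11 alone had an unadjusted p under 0.05 by limma. Wnt11 was listed at 0 in every laboratory mouse and passed the filter only through the wild mice, so its direction was fixed by the filter. Rspo3, the R-spondin of the central vein, was at 0.514, 0.729 and 0.488 FPKM in laboratory mice, against 2.48, 3.88 and 2.59 in wild mice, without overlap. Its zFPKM difference was 0.59 (adjusted p = 0.22), and its centred log2 difference of 1.32 was called (adjusted p = 0.00831). Wnt4 and Rspo1 were called lower on centred log2 (differences -1.60 and -1.49, adjusted p = 0.0101 and 0.0147), and their FPKM overlapped between the groups. Over all tested genes, 16.9% were higher and 33.8% lower on centred log2. Wnt2 (zFPKM difference -0.11) and Wnt9b (0.08), the ligands of liver endothelium, were not called on either scale. Of 21 receptors and transducers, Ctnnb1, which encodes beta-catenin, was higher in wild mice on zFPKM and Dvl1 lower, shares near those of all tested genes. On centred log2, 6 of the 21 were higher and 3 lower. Ctnnb1 had FPKM of 9.41, 13.8 and 11.2 in laboratory mice, against 56.9, 61.7 and 65.1 in wild mice (zFPKM difference 0.59, adjusted p = 0.00162). Without wild mouse 3 it was not called. Dvl1 (zFPKM difference -0.44, adjusted p = 0.0443) was called in 1 of 6 fits that left out a mouse. Apc (0.11), Tcf7l2 (-0.23) and Lgr4 (0.12) were not called.

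Around the single markers, related genes were read from lists as well, beside 7.28% higher and 7.17% lower over all tested genes on zFPKM. For Cyp1a2, the aryl hydrocarbon receptor list held 6 tested genes, of which Cyp1a1 and Nqo1 were higher on zFPKM and none lower. Cyp1a1, the classical target of the receptor, was at 0.408, 0.622 and 0.485 FPKM in laboratory mice, against 3.55, 5.46 and 4.14 in wild mice (zFPKM difference 0.84, adjusted p = 0.0384), and was called in 1 of the 6 fits that left out a mouse. The receptor Ahr (0.01) and its partner Arnt (0.19) were not called. For Glul and Slc1a2, 5 of 11 genes of glutamine, glutamate and ammonia handling were higher, led by Got1 (zFPKM difference 1.09), Oat (0.99) and the ammonia channel Rhbg (0.88), and the periportal glutaminase Gls2 was not (0.07). Oat, which turns ornithine towards glutamate in pericentral cells, rose from 27.1, 67.7 and 43.5 FPKM to 586, 536 and 449. No gene of this list was lower on zFPKM, at an unadjusted p under 0.05 either, and Slc1a3 was called lower on centred log2. Oat and Rhbg were already counted in the list of other pericentral genes.

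For Rgn, 1 of 4 genes of ascorbate synthesis was higher, Gulo, which makes the last step and is also in the list of other pericentral genes. Gulo had FPKM of 24.1, 38.2 and 30.5 in laboratory mice, against 241, 294 and 262 in wild mice (zFPKM difference 0.83, adjusted p = 2.82e-09). For Ctsc, 3 of 10 other cathepsins were higher, Ctsh (0.76), Ctsl (0.63) and Ctsd (0.47), while Ctsb, the highest of the list, was not called (0.12). For Hsd17b13, 1 of 10 tested genes of the lipid droplet was higher, a share near that of all tested genes, namely Plin2, which coats the droplets (zFPKM difference 0.41, adjusted p = 0.0159). Hsd17b11, the close relative of Hsd17b13, was at 43.9, 46.1 and 29.4 FPKM in laboratory mice, against 205, 94.0 and 95.7 in wild mice (zFPKM difference 0.34, adjusted p = 0.0568).

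The labelled tissue was checked with markers of liver cell types, beside 7.28% higher and 7.17% lower over all tested genes on zFPKM. Hepatocyte markers were abundant in every mouse. The 5 with an estimate in all mice summed to 29058 to 40105 FPKM in laboratory mice, against 17114 to 18543 in wild mice, Ttr, Apoa1 and Serpina1c were lower in wild mice, and Tat was higher. Markers of the liver sinusoidal endothelium summed to 21.1 to 35.0 FPKM in laboratory mice, against 16.5 to 57.2 in wild mice. None of the 7 was called on zFPKM. At an unadjusted p under 0.05 by limma, 2 were lower, against 2369 of the 18629 tested genes. On centred log2 Stab1 and Stab2 were lower, a share near the 33.8% of all tested genes. Cholangiocyte markers, of the bile ducts in the portal triad, summed to 29.7 to 64.6 FPKM against 12.2 to 27.6, with Spp1 lower in wild mice on zFPKM (-0.75) and 5 of 6 lower on centred log2, where 33.8% of all tested genes were lower. Stellate cell markers summed to 102.5 to 120.4 against 172 to 293, with Rgs5 higher (0.76). On centred log2 4 of 7 were higher and 1 lower, against 16.9% and 33.8% of all tested genes. Of the neutrophil markers, S100a8 and S100a9 were lower (-1.09 and -1.0) while Ly6g was listed at 0 in every mouse. The part of these cells in the differences of the zonation markers was not tested.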

How the data were processed

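RNA was extracted from unfixed frozen liver of 3 laboratory and 3 wild mice, and mRNA libraries that keep the strand were read from a single end. The authors aligned the reads with kalign to a repeat-masked GRCm38.p6 and made the deposited FPKM with the Tuxedo pipeline. From FPKM the authors then computed zFPKM, a deposited score with its own mode and SD per mouse, with the R package zFPKM. The methods of the study name the Trinity edgeR pipeline for fold changes, which was not run here because FPKM are not counts. Starts in the files count from 0, so 1 was added.

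Groups were taken from the labels. Only gene names that each mouse lists exactly once entered. Failed estimates were set to missing (24 names had at least 1), and zeros of laboratory mouse 1, whose failures are not marked, were treated as missing for 8 names that had a zFPKM above 2 or a failed estimate in each other mouse. After values under -3 were raised to -3, genes above -3 in 3 or more mice were tested by limma 3.58.1 in R 4.3.3 (lmFit, eBayes with trend, Benjamini-Hochberg adjustment over all tested genes, threshold 0.05). Replicates are separate animals. Ratios were compared with scipy 1.17.1 by exact permutation of log2 ratios. On simulated data of 18619 genes, of which 200 were shifted by 1 or 2 in zFPKM, 19.5% and 78.5% of the shifted genes were recovered. Of the calls, 2.5% and 1.26% were false. The simulated noise took each gene's own SD, while the fit of the data took its errors from the trend. These shares therefore need not hold for the data. Named genes are the 10 markers and, of each list, the largest called rise and fall, the highest member, members whose role is the point of the list, and the 2 genes nearest to each marker. Genes named beyond that were chosen after their values were seen. The markers and lists were chosen with earlier results of these data known. Promoter windows are from RefSeq, GRCm38.p6. Sequences of some markers and other assays of the study were not analysed here. The genes nearest to Hsd17b13 and the lymphocyte markers are not reported here.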

Additional observations from a re-analysis of the deposited data

How the results depend on the processing

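Of 18629 tested genes, 2692 were called, 5 of them zonation markers. Leaving out each mouse in turn gave 1342 to 3004 genes and 1 to 6 markers, with median zFPKM differences of 0.28 to 0.38 (pericentral) and 0.39 to 0.44 (periportal). It gave 12 to 18 other pericentral and 5 to 8 other periportal genes. Calls fell with a floor of zFPKM at -20 (1199 genes, 2 markers, 10 and 4 other pericentral and periportal genes), with no filter on low values (21 genes, 0 markers, 0 and 1 others) and with eBayes without trend (794 genes, 1 marker, 3 and 2 others). They also fell with sex as a covariate (1349 genes, 1 marker, 11 and 4 others) and with males only (0 genes, 0 markers, 0 and 0 others). In both of these the periportal median was 0.29, Cyp2f2 turned to 0.06 and Tbx3 to -0.04. Both set wild mouse 1 alone against the laboratory males. With males only, 3118 genes had an unadjusted p under 0.05.

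With zFPKM set to a median of 0 in each mouse, 5278 genes and 3 markers were called, and with quantile normalization 7276 genes and 7 markers. Without laboratory mouse 3 and wild mouse 1, 5679 genes and 8 markers were called. On log2(FPKM + 1), 8247 genes and 9 markers were called, with medians of 1.54 and 1.95, and on log2(FPKM + 0.1), 8599 genes and 9 markers, with medians of 1.70 and 1.96 and 13 other periportal genes. On both, Cyp2f2 turned to 0.06. With log2(FPKM + 0.1) set to a median of 0 in each mouse, 8809 genes and 7 markers were called, with medians of 0.96 and 1.22, and with genes above 10 FPKM set to 0, 9457 genes and 6 markers, with medians of 0.84 and 1.10. Of the calls, 50.4% were higher in wild mice on zFPKM, 82.3% on log2(FPKM + 0.1) and 33.4% on the last scale. On no log2 scale do units equal those of zFPKM. The alternatives for the other zone genes and the last scale were chosen after seeing the data. The cause was not tested beyond what each setting changes by construction. No paired analysis was possible because the labels give no replicate numbers that the groups share. Depth is unknown without counts, and 3 mice a group limit the precision.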
